A study of Mus musculus with 7 samples.

Results

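The 31 genes described here serve the sensing and repair of DNA double-strand breaks, the lesion by which ionizing radiation does most of its harm to a cell. They were chosen by name for their roles, at a time when earlier results of these data were known. All 31 of them were found among the 21755 gene symbols of the annotated table. They fall into 12 genes of sensing and signalling, 7 of end joining, 10 of homologous recombination and 2 of the Fanconi pathway. Levels were measured on 7 arrays of Langerhans cells, a dendritic cell type resident in the epidermis, which were sorted by flow cytometry from adult wild-type C57:Bl6 mice. The 4 control samples came from naive mice and the 3 irradiated samples from mice given 12 Gy of ionizing radiation before the cells were taken. Cells were pooled to make each sample, and neither the interval between irradiation and sorting nor the sex of the mice is stated in the labels. The labels of controls 1 and 4 cite an earlier record and those of the other 5 samples do not. Nothing in the labels says that samples of a group came from separate pools, so p-values measure only the spread among the samples at hand, part or all of which may be technical.

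A double-strand break is bound by a complex of the products of Mre11a, Rad50 and Nbn, which activates the kinase ATM. ATM phosphorylates the histone variant H2AX, the scaffold protein MDC1 binds that mark, and the ubiquitin ligases RNF8 and RNF168 then bring in 53BP1 and BRCA1. End joining seals the break directly and works throughout the cell cycle, while homologous recombination copies the sister chromatid and is used in S and G2 phase. Fanconi proteins act on crosslinked DNA and hand the resulting breaks to recombination.

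None of the 31 genes passed the test between the groups, but 10 of them were lower on every irradiated array than on every control array. The test was limma's moderated linear model of log2 intensity over 13053 genes, with Benjamini-Hochberg adjustment and a threshold of 0.05. The symbols in the lowest 40% by mean over the 7 arrays (below 6.07 log2, an intensity of 67.3) were not tested, which left out 15 of the 31 genes and kept 16. Of all genes tested, 1.68% passed (15 or 0.115% higher and 204 or 1.56% lower). Among the 16 tested genes, 0 passed, and 5 had an unadjusted p under 0.05, against 19.7% of all tested genes. Without the filter, again 0 of 31 passed, where 0.657% of 21755 symbols did, and 9 had an unadjusted p under 0.05, all of them lower, against 10.4% of all symbols that were lower at that p. With irradiated replicate 1 left out and the filter kept, 15 of the 31 were tested and 0 passed, where 4.66% of tested genes did. The lowest adjusted p of a tested gene was 0.0825, for H2afx.

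The irradiated mean was below the control mean in 23 of the 31 genes, while this was so for 40.8% of all symbols. The median log2 difference, irradiated minus control, was -0.21 over the 31 genes, 0.065 over all symbols and -0.05 over the 13053 tested genes. The 10 genes whose groups did not overlap (32.3% of 31) were Atm, Chek2, Mdc1, H2afx, Rnf168, Xrcc6, Brca1, Brca2, Rad54l and Blm, each of them lower in irradiated cells. Groups separated in this direction in 10.0% of all symbols. Not one of the 31 was higher on every irradiated array than on every control array, and 4.83% of all symbols were. Against controls 2 and 3 alone, whose labels cite no earlier record, the median difference was -0.31 and 15 of the 31 were lower with no overlap, where 17.2% of all symbols were. The median level of the 31 genes was 6.18 to 6.54 log2 on the control arrays and 5.93 to 6.06 on the irradiated ones. In pooled bulk samples, fewer cells that express a gene and less RNA of it per cell cannot be told apart.

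**Figure D1:**
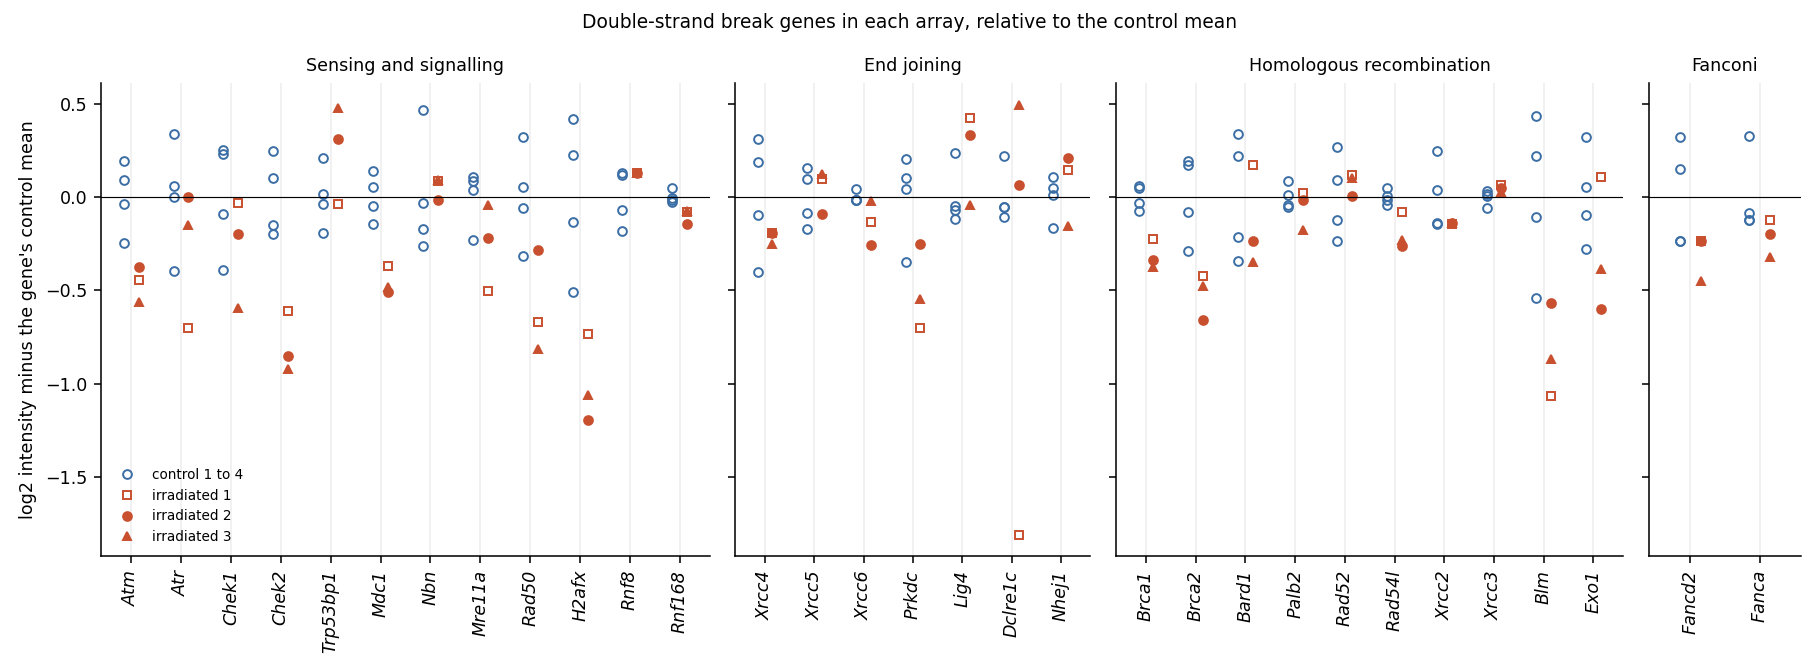
Level of each of the 31 genes on each array (y axis, log2 intensity minus the mean of the 4 controls of that gene), by pathway. Open circles are the 4 control arrays and filled or square symbols the 3 irradiated arrays. Chek2, Mdc1 and H2afx lie below the controls on all irradiated arrays, and Dclre1c stands far below them on irradiated 1 alone, at 6.18 log2.

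The library labelled irradiated replicate 1 stood apart from the other 6. Its correlations with them across genes, which are not independent replicates, were 0.650 to 0.728, and those among the others were 0.858 or higher. The summed intensity of 12 Langerhans cell markers was 2639 on that array, 36032 to 46371 on the controls and 49952 to 50828 on irradiated replicates 2 and 3. Such sums weigh the brightest genes most. Without irradiated replicate 1, 5 of the 12 markers had a lower irradiated than control mean, though the sums were higher. Cd207, the gene of langerin, was at 5.64 log2 on irradiated replicate 1. The 12 keratinocyte markers summed to 22384 on that array (3494 to 13935 on the controls, 7604 and 9215 on the other irradiated arrays), the 10 fibroblast markers to 18773 (1676 to 5267, and 1142 and 3376) and the 8 erythroid markers to 21064 (610 to 1228, and 491 and 1409). The 10 T cell markers summed to 684 to 754 on the controls, to 1213 on irradiated replicate 1 and to 861 and 1566 on the other irradiated arrays, and the 8 neutrophil markers to 428 to 649, 393 and 380 to 411. None of these markers was at 0, and their part in the differences of the repair genes was not tested. Without that library the median difference of the 31 genes was -0.22, with 12 lower and 1 higher with no overlap, where 13.7% and 9.91% of all symbols were so placed. Xist, the X-inactivation RNA, was at 10.9 to 11.7 log2 in the controls and at 5.31 to 5.93 in the irradiated samples, and the Y-linked gene Ddx3y at 4.35 to 5.45 and 6.67 to 8.71. Sex and irradiation therefore cannot be told apart here, and 0 of the 31 genes lie on the X or Y chromosome in the RefSeq gene table.

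**Figure D2:**
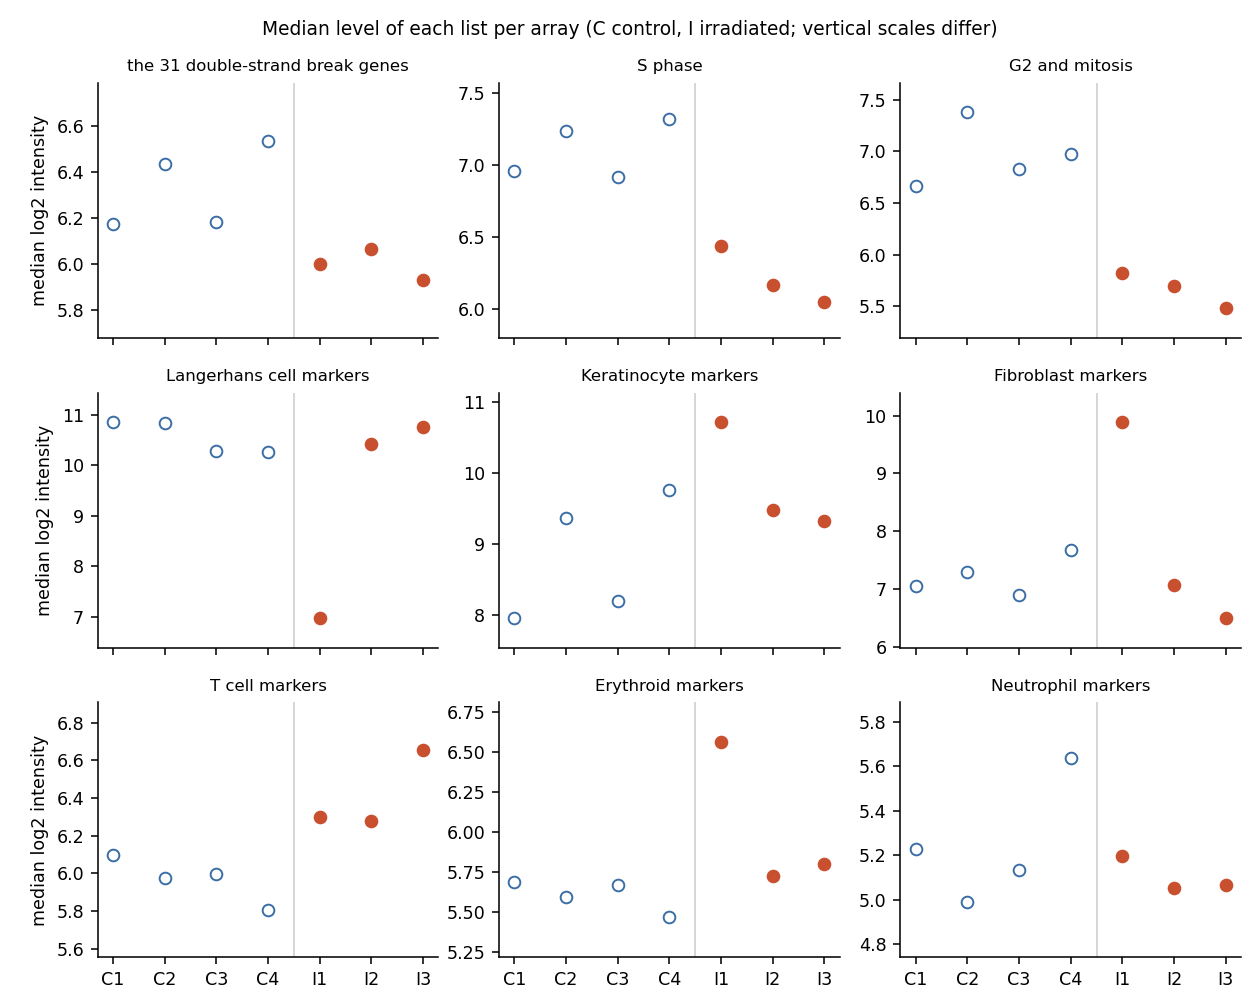
Median log2 intensity of each gene list on each array (control arrays C1 to C4, irradiated arrays I1 to I3, with a separate scale in each panel). The median of the 31 genes is 6.18 or more on the controls and 6.06 or less on the irradiated arrays. The Langerhans cell list drops to 6.98 on irradiated 1 alone.

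Among the genes of sensing and signalling, 9 of 12 had a lower irradiated mean, the median difference was -0.28, and 5 were lower with no overlap. Of all symbols, 40.8% had a lower irradiated mean and 10.0% were lower with no overlap. The largest difference of all 31 genes was in H2afx, the gene of the histone variant that carries the break mark. Its level was 7.74, 7.94, 7.01 and 7.39 log2 in controls 1 to 4 and 6.79, 6.32 and 6.46 in irradiated 1 to 3. All irradiated arrays lay below all controls, and the controls themselves spread over nearly 1 log2 unit. The difference was -0.997 (SE 0.24, n = 4 and 3, limma adjusted p = 0.0825), with a 95% interval from -1.55 to -0.45.

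Chek2 encodes a checkpoint kinase that ATM activates. It was at 6.13, 6.44, 6.18 and 6.58 log2 in the controls and at 5.72, 5.48 and 5.41 in the irradiated samples, the widest gap between the groups among the 31 genes (0.41). Its mean over all arrays lay below the limit for testing. In the fit without a filter the difference was -0.80 (SE 0.15, limma adjusted p = 0.0701). With irradiated replicate 1 also left out it was -0.89, and Chek2 was then the 1 gene of 31 to pass (limma adjusted p = 0.0462, where 1.78% of all symbols passed), a setting chosen after the data had been seen. In the other alternatives that tested it, its adjusted p was 0.0701 to 0.191.

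Atm, the gene of the kinase that starts the response, was at 5.77, 5.98, 6.11 and 6.21 log2 in the controls and at 5.57, 5.64 and 5.45 in the irradiated samples. Every irradiated value was thus below every control, but all lay near or under the limit for dim genes. The difference was -0.46 (95% interval -0.77 to -0.16, limma adjusted p = 0.170 without a filter). Mdc1, whose product reads the mark on H2AX, was at 6.95, 7.04, 7.23 and 7.14 in the controls and at 6.72, 6.58 and 6.61 in the irradiated samples. The groups were apart by 0.23, and the difference of -0.45 (SE 0.12) did not pass (limma adjusted p = 0.0981).

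Rad50 encodes the long coiled-coil subunit of the complex that binds the broken end. It was at 6.43, 6.69, 6.80 and 7.07 log2 in the controls and at 6.08, 6.47 and 5.93 in the irradiated samples. The groups overlapped, since irradiated 2 lay just above control 1, and the difference was -0.59 (SE 0.19, limma adjusted p = 0.153). The nuclease gene Mre11a, of the same complex, differed by -0.26 (limma adjusted p = 0.388). Nbn, the remaining partner, had control values from 7.02 to 7.75 and irradiated values from 7.26 to 7.37, a difference of 0.053 (95% interval -0.39 to 0.50).

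The kinase genes Atr and Chek1 showed smaller differences than Atm and Chek2. Atr, whose product senses single-stranded DNA at resected ends and stalled forks, was at 6.18 to 6.91 log2 in the controls and at 5.87, 6.57 and 6.42 in the irradiated samples. Its difference of -0.29 (limma adjusted p = 0.496) was -0.075 without irradiated replicate 1. Chek1, the gene of the checkpoint kinase that ATR activates, was at 5.17, 5.79, 5.47 and 5.81 in the controls and at 5.53, 5.36 and 4.97 in the irradiated samples. These groups overlapped widely at levels under the limit for dim genes, with a difference of -0.28 (95% interval -0.73 to 0.18 without a filter).

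The ubiquitin ligases and 53BP1 act after MDC1. Rnf168 was at 7.63, 7.62, 7.60 and 7.68 log2 in the controls and at 7.55, 7.49 and 7.55 in the irradiated samples. Its replicates lay within 0.1 of each other in both groups, and the groups did not overlap, though the difference was only -0.10 (95% interval -0.40 to 0.20) and became 0.098 after quantile normalisation. Rnf8 was at 5.74 to 6.06 in the controls, and the deposited values of irradiated 1 to 3 and of control 3 were the same number, so their spread of 0 is no measure of error. Trp53bp1, the gene of 53BP1, which protects ends from resection and favours end joining, was at 6.77, 7.17, 6.97 and 6.92 in the controls and at 6.92, 7.27 and 7.44 in the irradiated samples. Irradiated 2 and 3 lay above all controls and irradiated 1 within them, and the difference of 0.25 (95% interval -0.13 to 0.63, limma adjusted p = 0.430) was the largest positive one of the 31 genes.

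Among the 7 end joining genes, 4 had a lower and 3 a higher irradiated mean, with a median difference of -0.14. Groups were lower with no overlap in 1 of the 7 (14.3%), near the 10.0% of all symbols. Prkdc encodes the catalytic subunit of the DNA-dependent protein kinase, which holds the ends together with the Ku proteins. It was at 6.18, 6.62, 6.57 and 6.73 log2 in the controls and at 5.82, 6.28 and 5.98 in the irradiated samples. Irradiated 2 reached above control 1, so the groups overlapped, and the difference was -0.50 (SE 0.17, limma adjusted p = 0.176).

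The genes of the Ku heterodimer, which binds the bare end first, were near level between the groups. Xrcc5 (Ku80) differed by 0.045 (95% interval -0.24 to 0.33 without a filter) and Xrcc6 (Ku70) by -0.14 (-0.38 to 0.099). Xrcc6 did not overlap, but by less than 0.01 log2, with its lowest control at 5.93 and irradiated 3 at 5.92. Both were under the limit for dim genes.

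Dclre1c encodes Artemis, the nuclease that opens and trims ends. It was at 7.88, 7.94, 8.21 and 7.94 log2 in the controls and at 6.18, 8.05 and 8.49 in irradiated 1, 2 and 3. The low value was that of the library with few Langerhans cell transcripts, and the other irradiated arrays lay within or above the controls. The difference was -0.42 with all arrays (SE 0.50, limma adjusted p = 0.654) and 0.28 without irradiated replicate 1 (limma adjusted p = 0.470).

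Of the ligation step, Lig4, the gene of the ligase itself, was at 6.23, 5.92, 5.95 and 5.87 log2 in the controls and at 6.42, 6.33 and 5.95 in the irradiated samples. Irradiated 1 and 2 lay above all controls and irradiated 3 among them, and the difference was 0.24 (95% interval -0.12 to 0.59, limma adjusted p = 0.422). Its partner Xrcc4 differed by -0.21 (limma adjusted p = 0.519), with irradiated values of 6.15 to 6.21 inside the control range of 6.0 to 6.72. Nhej1, the gene of the XLF protein that bridges ends with XRCC4, differed by 0.066 (95% interval -0.23 to 0.36 without a filter).

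Of the 10 homologous recombination genes, 8 had a lower irradiated mean and the median difference was -0.17. Groups were lower with no overlap in 4, namely Blm, Brca2, Brca1 and Rad54l, where 10.0% of all symbols were so placed. Only 3 of the 10 were bright enough to be tested. Blm, the gene of the helicase that unwinds recombination intermediates, was at 5.93, 6.69, 6.36 and 6.91 log2 in the controls and at 5.41, 5.90 and 5.61 in the irradiated samples. Control 1 lay only 0.026 above irradiated 2, and the difference was -0.83 (SE 0.24, limma adjusted p = 0.125).

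Brca2 encodes a mediator of strand exchange that acts on resected DNA. Its level was 6.08, 6.33, 5.87 and 6.35 log2 in the controls and 5.74, 5.50 and 5.68 in the irradiated samples, apart by 0.14. The difference was -0.52 (95% interval -0.86 to -0.18, limma adjusted p = 0.170 without a filter). Brca1, which promotes resection, was at 5.83, 5.97, 5.88 and 5.95 in the controls and at 5.68, 5.57 and 5.53 in the irradiated samples, a difference of -0.31 (-0.54 to -0.081, limma adjusted p = 0.210 without a filter). Both groups of Brca1 were tight (SD 0.064 and 0.079), yet all its values lay under the limit for dim genes.

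The partners of BRCA1 and BRCA2 showed no such separation. Bard1, the partner of BRCA1, differed by -0.14 and Palb2, which links BRCA1 to BRCA2, by -0.057, both with overlapping groups. The recombination genes Rad52 and Xrcc3 were bright enough to test and had differences of 0.076 (95% interval -0.27 to 0.42) and 0.046 (-0.24 to 0.33). Xrcc3, which acts in strand exchange, was at 7.52, 7.5, 7.43 and 7.49 log2 in the controls and at 7.55, 7.54 and 7.51 in the irradiated samples, so all 7 arrays lay within 0.13 of each other. Exo1, a nuclease of resection, was at 5.61 to 6.21 in the controls and at 6.0, 5.28 and 5.50 in the irradiated samples. Its difference was -0.29 with all arrays and -0.50 without irradiated replicate 1. The translocase gene Rad54l differed by -0.19 and the strand exchange gene Xrcc2 by -0.14.

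Both Fanconi genes had a lower irradiated mean with overlapping groups. Fancd2, whose product is ubiquitylated at crosslinks, was at 5.34, 5.89, 5.34 and 5.72 log2 in the controls and at 5.34, 5.34 and 5.12 in the irradiated samples. The value of 5.34 was the same number on 4 arrays, and the difference was -0.31 (95% interval -0.68 to 0.068 without a filter). Fanca, a subunit of the complex that modifies FANCD2, was at 6.54, 6.98, 6.57 and 6.54 in the controls and at 6.54, 6.46 and 6.34 in the irradiated samples. Its difference was -0.21 (limma adjusted p = 0.443), and control 2 stood above the rest.

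**Figure D3:**
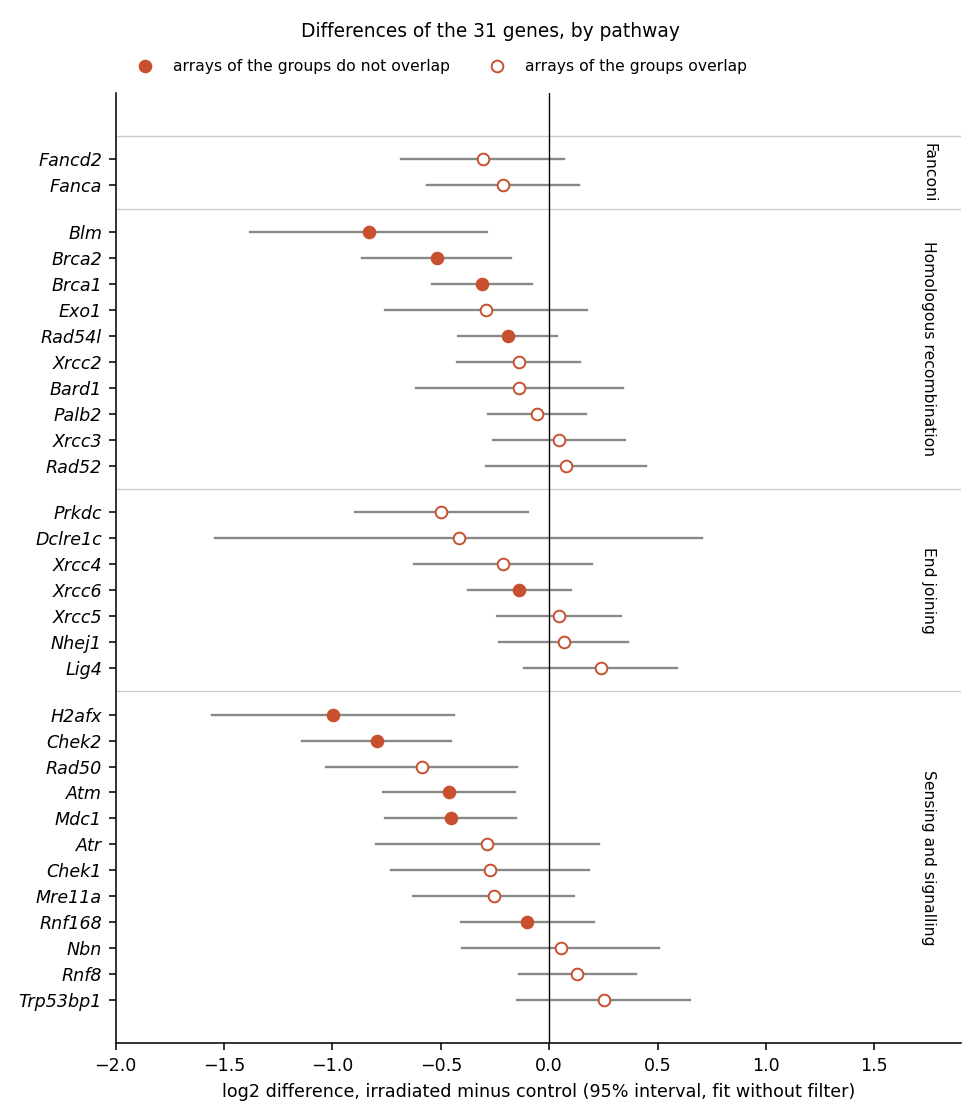
Log2 difference of each gene, irradiated minus control (x axis), with its 95% interval from the fit without a filter. Filled points are the 10 genes whose arrays do not overlap between the groups. Differences run from -0.997 for H2afx to 0.25 for Trp53bp1, and the interval of Dclre1c is the widest.

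Only 3 of the 31 genes had several probe sets. The second probe set of Atr differed by 0.078 where the one used here gave -0.29, so the probe sets of Atr disagree in sign. The second one of Nbn gave 0.11 against 0.053, and the 3 probe sets of Bard1 gave -0.14, -0.039 and -0.21.

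Promoter sequence was set beside these levels because genes such as Brca1 and Chek1 are known targets of the E2F factors, which drive transcription ahead of S phase. RefSeq promoters (GRCm38.p6, 250 bases before to 50 after the start) were at hand for 24 of the 31 genes. An E2F site, searched on both strands as TTT, then 2 bases that are each C or G, then CGC, stood in 5 of these 24 (20.8%) and in 2.60% of all 27025 genes with a promoter, which were not matched to the members in base composition. The 5 genes were Chek2, Mdc1, Brca2, Xrcc6 and Bard1, and Brca1 and Chek1 themselves held no match. Of the 10 genes whose irradiated arrays were all below the controls, 9 had a promoter at hand. The E2F site stood in 4 of these 9 (all of the 5 but Bard1), the CCAAT box in 7 and the CHR element, both searched likewise, in 0. The stretches around these sites are shown on the strand of the gene, 5′ to 3′, with the site in capitals, each preceded by its place in the genome and the distance of its first base from the start.
Chek2, chr5:110839801-110839868, plus strand, 152 bases upstream: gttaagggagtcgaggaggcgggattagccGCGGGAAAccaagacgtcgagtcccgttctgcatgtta
Brca2, chr5:150522423-150522490, plus strand, 168 bases upstream: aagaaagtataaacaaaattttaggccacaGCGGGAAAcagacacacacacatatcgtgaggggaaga
Mdc1, chr17:35841452-35841497, plus strand, 16 bases upstream: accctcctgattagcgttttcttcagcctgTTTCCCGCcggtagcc
Xrcc6, chr15:82016293-82016360, plus strand, 46 bases upstream: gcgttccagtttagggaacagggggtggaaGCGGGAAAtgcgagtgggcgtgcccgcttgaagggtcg
Bard1, chr1:71103144-71103211, minus strand, 209 bases upstream: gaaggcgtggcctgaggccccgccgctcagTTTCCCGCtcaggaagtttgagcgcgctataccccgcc
In all 5 the match was the same 8 letters, read forward in Mdc1 and Bard1 and as the reverse complement in Chek2, Brca2 and Xrcc6. The CHR element TTTGAA, bound by the MuvB core of the DREAM complex, stood in 2 of 24 (Bard1 and Rnf8, 8.33%) and in 20.2% of all genes. The CCAAT box, the site of NF-Y, stood in 14 of 24 (58.3%) and in 41.1% of all genes. The CHR and CCAAT matches of Rnf8 share 1 base, and no other matches in these genes overlapped. A match is a description and not a shown binding site, and no match says only that these letters are absent from the window.

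The rest of the repair machinery was read from 4 further lists with 85 genes found of 87. These lists were chosen for their roles, with earlier results of these data known. Of the 85, 59 were tested, 0 were higher and 1 was lower past the threshold, against the 1.68% of all genes given above. The 1 gene was Hus1, a subunit of the clamp that activates ATR. It was at 7.12, 6.90, 6.89 and 6.90 log2 in the controls and at 6.42, 6.23 and 6.03 in the irradiated samples, and fell by 0.72 (SE 0.13, limma adjusted p = 0.0405). Hus1 did not pass without the filter (limma adjusted p = 0.0764), and with single arrays left out it passed only without irradiated 1 (0.0227, and up to 0.178 without one of the others). Groups were lower with no overlap in 27 of the 85 (31.8%), where 10.0% of all symbols were, and the median difference was -0.22.

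By pathway, the median difference was -0.32 for 25 genes of other checkpoint and chromatin signalling, -0.15 for 13 of other end joining, -0.27 for 32 of other homologous recombination and -0.15 for 15 of other Fanconi genes. In the lists without a gene past the threshold, the members with the highest mean were Parp1 (a break sensor, -0.63, limma adjusted p = 0.131), Rmi1 (a partner of BLM, -0.53, limma adjusted p = 0.243) and Rad18 (a ubiquitin ligase of damaged forks, -0.32, limma adjusted p = 0.424). Brcc3, Smc1a and Fancb of these lists are on the X chromosome.

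Excision and mismatch repair genes, which mend single bases and short stretches, had a median difference of -0.095 over 30 genes. Groups were lower with no overlap in 6 of the 30.

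Genes of the cell cycle were read beside them. Over all genes, 1.56% of those tested were lower past the threshold, and 10.0% of symbols were lower with no overlap. Of 25 S phase genes, 24 had a lower irradiated mean, with a median difference of -0.59. Of these 25, 21 were tested, 4 fell past the threshold and 16 were lower with no overlap. Mcm7 fell by 1.26, Rrm2 by 1.24 and Mcm6 by 1.22, with limma adjusted p = 0.0232, 0.0278 and 0.0293. With single arrays left out, each of these passed only without control 1 or irradiated 1, and the adjusted p reached 0.130, 0.149 and 0.155. All 25 genes of G2 and mitosis had a lower irradiated mean, with a median difference of -1.10. Of these 25, 18 were tested, 8 fell past the threshold and 20 were lower with no overlap. Among the tested genes the largest falls were in Ccnb2, Ccna2 and Nusap1, by 2.92, 2.60 and 2.11 log2 (limma adjusted p = 0.00906, 0.0159 and 0.0166). Ccnb2 did not pass without control 4 or irradiated 2 (adjusted p up to 0.0713). Ccna2 and Nusap1 did not pass without control 2 or 4 or irradiated 2 or 3 (up to 0.117). Bub1, the gene of a spindle checkpoint kinase, was under the limit for testing, and without a filter it fell by 2.72 (limma adjusted p = 0.0168), a gene named after its value was seen. The part of these cell cycle genes in the lower levels of the 31 genes was not tested, and no test compared the lists with each other. Cdkn1a encodes the cell cycle inhibitor p21, after which the series is named. It was at 11.2 to 11.5 log2 in the controls and at 12.0 to 12.6 in the irradiated samples. The difference was 1.01 (limma adjusted p = 0.0540, and 0.106 without the filter). Cdkn1a passed in 5 of 19 alternatives. With single arrays left out it passed only without irradiated 1 (adjusted p = 0.0102, and up to 0.205 without one of the others).

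**Figure D4:**
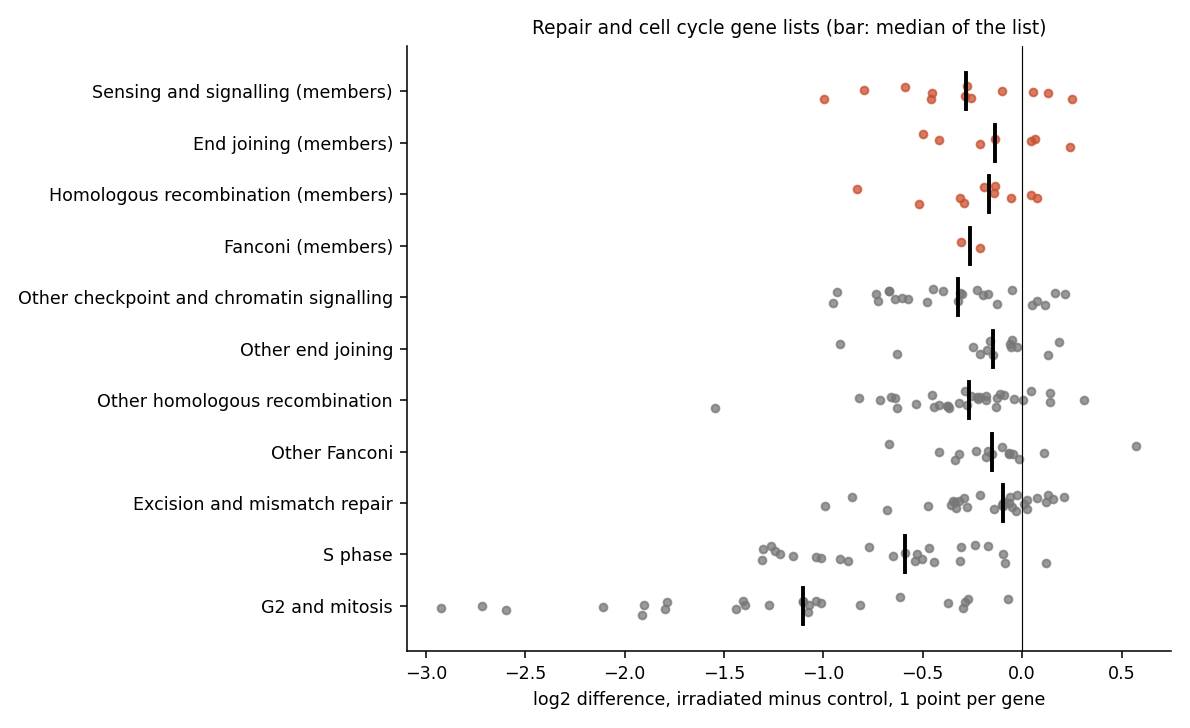
Log2 difference, irradiated minus control (x axis), of each gene of the 4 pathways described here and of 7 further lists, 1 point per gene with a bar at the median. The medians of the 4 pathways lie between -0.28 and -0.14, that of S phase genes at -0.59 and that of G2 and mitosis genes at -1.10.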

How the data were processed

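The authors deposited 1 intensity for each probe set on each array, and the submitters' processing notes name RMA (robust multi-array average) as the method. The design of the array, the build of its annotation and the set of arrays normalised as one are not stated. Both deposited tables held the same values (174454 of 174454 within 1e-09), on a linear scale from 3.99 to 19977, and array medians lay between 80.2 and 88.2. The number of arrays, 7, limits the precision.

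Intensities were taken to log2. Each symbol kept its probe set with the highest mean. The lowest 40% of symbols were left out, and 13053 were tested with lmFit and eBayes (trend) of limma 3.58.1 in R 4.3.3. Intervals are 95% intervals of the same fit. Levels are not compared between probe sets. The fit was tested on simulated data with independent noise of the spread of the controls. The simulation held no outlying library such as irradiated replicate 1. Members, lists and alternatives were chosen with earlier results of these data known. Genes named in full were, in each pathway, the 3 with the largest difference and the one with the highest mean, plus Atm, Chek1, H2afx, Prkdc and Brca1. From each other repair or cell cycle list, up to 3 genes past the threshold were named, or else the one with the highest mean. Genes named beyond this rule were chosen after their values were seen. Some genes of the further lists are not reported here. Alternatives were other filters, variance priors, scalings, probe set rules, log offsets and controls, the replicate number as a block, and each array left out. Same-numbered samples deviated together with correlations of 0.021, -0.055 and 0.168, and differently numbered ones with -0.199 to 0.165. The numbers were not taken as pairs, though these correlations, from so few samples, cannot exclude pairing.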

Additional observations from a re-analysis of the deposited data

Results flagged for a closer look

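In 3 of the 31 genes, 1 control sample stood outside the other 3 by Dixon's criterion for 4 samples, and chance gives about 1 in 20 groups. Xrcc6 in control 1 was at 5.98, where the deposited values of the other controls were 1 and the same number, 5.93. Dclre1c in control 3 was at 8.21, and controls 2 and 4 were next with the same number, 7.94. Fanca in control 2 was at 6.98, with the next control at 6.57 and controls 1 and 4 at the same number, 6.54. All 3 flagged groups thus held equal values, for which the rate of 1 in 20 does not allow. Groups of 3 irradiated samples were not tested in this way.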

How the results depend on the processing

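Limma called 0 of those of the 31 genes it tested under every alternative but one. It called 1, Chek2, in the fit without filter and without irradiated replicate 1, a setting chosen after seeing the data, which called 388 of all genes. The count over all genes, 219, became 143 without a filter, 1 with controls 2 and 3 only (those whose labels cite no earlier record), and 1 for controls 2 and 3 against irradiated 2 and 3. Leaving out single arrays gave 2 to 608 (608 without irradiated 1, 58 without irradiated 3, 2 without irradiated 2, and 284, 19, 47 and 2 without control 1, 2, 3 or 4). With the replicate block it was 0, as was the count for the 31 genes, with 5 of 16 at an unadjusted p under 0.05 and a median difference of -0.21. The cause of these changes was not tested. The median difference ranged from -0.31 to -0.18 over all alternatives and from -0.25 to -0.19 with single arrays left out. The genes lower with no overlap, 10 (where 10.0% of all symbols were), numbered 17 for controls 2 and 3 against irradiated 2 and 3 (22.2% of all symbols). With single arrays left out they numbered 10 to 14, and the share of all symbols changed as well. Without irradiated 1, for example, 12 of the 31 and 13.7% of all symbols were so placed. Among tested genes, Dclre1c ranged from -0.87 to 0.28 with single arrays left out and turned to 0.28 without irradiated replicate 1 (with or without filter) and 0.20 without controls 1 and 4 as well. Rnf168 turned to 0.098 with quantile normalisation. Nbn was -0.0046 with the replicate block, and over single arrays left out it ranged from -0.035 to 0.21, and Rad52 from -0.0031 to 0.17. Of 31 genes, 12 had both group means under the limit for dim genes, and there signal over background limits what the arrays could show.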

Other observations

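Some further repair genes, chosen after their values were seen, lay outside the rule for named genes. Dna2, a nuclease and helicase of long-range resection, was at 6.61, 7.31, 8.22 and 7.78 log2 in the controls and at 5.64, 6.0 and 6.16 in the irradiated samples. Its difference of -1.55 (SE 0.36, limma adjusted p = 0.0772) was larger than that of any of the 31 genes. With single arrays left out it passed only without control 1 (adjusted p = 0.0319, and up to 0.238 without one of the others). Fancc, a subunit of the Fanconi core complex, went the other way, at 5.63, 6.11, 5.87 and 5.94 in the controls and at 6.05, 6.75 and 6.57 in the irradiated samples (0.57, limma adjusted p = 0.168). With single arrays left out it passed only without irradiated 1 (0.78, adjusted p = 0.0425, and up to 0.348 without one of the others).

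In 8 of the 31 genes the deposited value was the same number on 2 or more arrays, as it was in 6203 of 21755 symbols (28.5%).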
